A study of Mus musculus with 27 samples.

Results

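The smooth muscle contractile genes examined here are the 10 genes Acta2, Actg2, Myl9, Myh11, Cnn1, Tagln, Tpm1, Tpm2, Des and Srf, chosen by gene symbol from the 20156 genes of the expression tables, and all 10 were found. They were followed through the reprogramming of mouse embryonic fibroblasts (MEFs) to induced pluripotent stem cells (iPSCs) by way of partly reprogrammed pre-iPSCs. MEFs were taken from e13.5 embryos that were hemizygous for an Oct4-GFP transgene and a Rosa26 allele, and the genetic background given for the chromatin samples was CBA/CaJ and C57BL/6J, while the study's methods add 129Sv/Jae mothers. Pre-iPSCs and iPSCs were induced from such MEFs with the 4 Yamanaka factors carried by retrovirus, so that all 3 cell types share the fibroblast genotype. The reprogrammed cells were a pair of stable pre-iPSC clones and the iPSCs corresponding to each. They were grown with leukaemia inhibitory factor on feeder layers of mitomycin C-inactivated MEFs and, for RNA-seq, had been kept for 6 passages. MEFs were grown in fibroblast medium and used at a low passage. Each cell type had 2 RNA-seq libraries, 2 ChIP-seq libraries each for histone H3, H3K4me3 and H3K27me3, and 1 for H3K9me3. The clone behind each library is not given in the sources used here, and p-values measure only the spread between libraries of a cell type.

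Smooth muscle cells shorten by sliding smooth muscle myosin along filaments built from the actins Acta2 and Actg2, and tropomyosins, calponin (Cnn1) and transgelin (Tagln) bind along those filaments. Many of these genes are switched on together by serum response factor (SRF), which binds a short A/T-rich element called the CArG box and works with cofactors of the myocardin family. Fibroblasts in culture also build such filaments when they take on a myofibroblast character, so the genes are not exclusive to smooth muscle.

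The bases just upstream of the start sites were searched for the CArG box on both strands, because SRF is itself 1 of the 10 genes. Of 20152 promoters of 300 bp, 1.49% held a CArG box and 9.42% held either a CArG box or a form with 1 G or C within its A/T core. Among the 10 genes a CArG box was present in 4 (Actg2, Myl9, Tagln and Srf), and 1 of the 2 forms was present in 5, Acta2 having only the form with 1 G or C. These 5 promoters are shown 5′ to 3′ on the strand of the gene from the mm9 genome, ending at the base before the start site, with capitals marking the matches. They lie at chr19:34329827-34330126 (minus strand) for Acta2, chr6:83486246-83486545 (minus) for Actg2, chr2:156600900-156601199 (plus) for Myl9, chr9:45744142-45744441 (minus) for Tagln and chr17:46693112-46693411 (minus) for Srf.
Acta2: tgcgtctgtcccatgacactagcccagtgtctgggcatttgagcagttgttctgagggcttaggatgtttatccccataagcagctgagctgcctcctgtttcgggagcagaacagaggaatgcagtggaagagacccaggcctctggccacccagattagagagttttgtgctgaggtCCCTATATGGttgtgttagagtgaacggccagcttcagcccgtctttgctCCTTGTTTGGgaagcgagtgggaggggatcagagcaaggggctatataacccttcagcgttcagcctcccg
Actg2: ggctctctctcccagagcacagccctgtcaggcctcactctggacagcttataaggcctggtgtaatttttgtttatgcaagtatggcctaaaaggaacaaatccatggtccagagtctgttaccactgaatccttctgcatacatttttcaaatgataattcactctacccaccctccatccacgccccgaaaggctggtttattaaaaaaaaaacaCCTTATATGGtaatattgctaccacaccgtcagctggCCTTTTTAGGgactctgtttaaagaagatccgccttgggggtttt
Myl9: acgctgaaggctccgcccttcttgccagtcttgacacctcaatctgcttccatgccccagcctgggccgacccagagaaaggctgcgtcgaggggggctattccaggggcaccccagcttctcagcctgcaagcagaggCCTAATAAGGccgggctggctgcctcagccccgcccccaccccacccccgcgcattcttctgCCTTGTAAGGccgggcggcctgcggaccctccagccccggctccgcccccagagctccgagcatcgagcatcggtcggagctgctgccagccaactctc
Tagln: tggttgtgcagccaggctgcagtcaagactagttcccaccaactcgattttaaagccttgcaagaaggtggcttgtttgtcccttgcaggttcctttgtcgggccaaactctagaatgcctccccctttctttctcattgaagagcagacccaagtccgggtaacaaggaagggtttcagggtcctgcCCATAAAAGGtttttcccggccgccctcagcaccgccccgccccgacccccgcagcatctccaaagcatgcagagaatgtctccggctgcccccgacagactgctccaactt
Srf: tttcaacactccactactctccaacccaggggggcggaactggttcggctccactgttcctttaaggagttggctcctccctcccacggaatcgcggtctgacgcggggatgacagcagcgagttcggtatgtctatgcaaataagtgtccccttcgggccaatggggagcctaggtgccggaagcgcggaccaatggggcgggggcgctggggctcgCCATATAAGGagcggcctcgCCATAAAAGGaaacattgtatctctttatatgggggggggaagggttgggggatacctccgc
The matches of Acta2 began 121 and 71 bp upstream of the start site, those of Actg2 82 and 45 bp, those of Myl9 161 and 99 bp, that of Tagln 112 bp and those of Srf 82 and 62 bp. A match describes the letters only, and SRF binding was not measured in the data used here.

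Expression was deposited as FPKM, fragments per kilobase of transcript scaled to the number mapped in the library, in a pair of tables that each held 1 library of every cell type and had been computed separately. Folds are therefore given within a table, and the test carried a term for the table. Libraries of a table still differed in the FPKM summed over all genes. The sums for MEFs, pre-iPSCs and iPSCs were 492473, 441736 and 527799 in the first table and 818207, 497290 and 392424 in the second. The folds were not scaled for this. The 8 pluripotency markers together were at 0.147 and 1.03 FPKM in the MEF libraries and at 881 to 3693 in the others. In the pre-iPSC libraries Pou5f1 and Sox2, both among the delivered factors, made up most of the sum, at 378 and 3184 FPKM and at 272 and 171, and reads of the delivered and the endogenous copies were not told apart here. Of the 8, 4 were called higher in pre-iPSCs than in MEFs (Pou5f1, Sox2, Tdgf1 and Dppa5a), 5 higher in iPSCs than in pre-iPSCs (Nanog, Zfp42, Esrrb, Dppa3 and Dppa5a) and all 8 higher in iPSCs than in MEFs, where 7.39%, 3.91% and 10.3% of all genes tested were called higher. Nanog, Zfp42, Esrrb and Dppa3 were at most at 0.519 FPKM in the pre-iPSC libraries, and they met the mean of 0.5 FPKM needed for a test through the iPSC libraries. Tdgf1, a co-receptor of Nodal, was at 228 and 333 FPKM in the pre-iPSC libraries and 258 and 488 in the iPSC libraries, whereas Dppa5a, an RNA-binding protein of pluripotent cells, was at 1.70 and 5.01 and then at 725 and 842. The 10 genes took 2.53% and 2.17% of all FPKM in the MEF libraries, 0.0734% and 0.0717% in the pre-iPSC libraries and 0.0351% and 0.0727% in the iPSC libraries. None of the 10 was listed at 0 in any library.

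**Figure D1:**
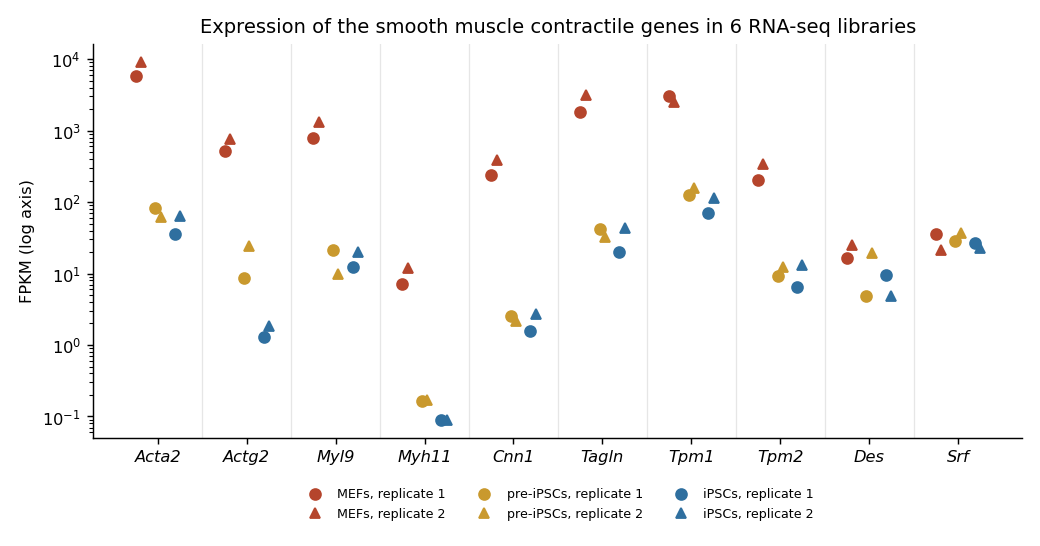
FPKM (log axis) of the 10 genes in the 6 RNA-seq libraries, 1 point for each library, with cell types in colour and replicate 1 and 2 as circles and triangles. For 8 genes both MEF libraries lie far above the other 4 (25.5% of 16963 genes lay below MEFs without overlap in pre-iPSCs and 29.9% in iPSCs), while Des in pre-iPSCs and Srf in both reprogrammed cell types overlap MEFs. Des lies below MEFs without overlap in iPSCs.

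Acta2, the smooth muscle alpha-actin (NM_007392, chr19:34315581-34329826), was among the most abundant transcripts of the MEFs, ranking 2 and 6 of all genes in the 2 libraries. Its level was 5762 and 9151 FPKM in the MEF libraries, 82.6 and 61.7 in the pre-iPSC libraries and 35.4 and 63.2 in the iPSC libraries. Both MEF libraries were thus 69.7 and 148 times above the pre-iPSC library of the same table, and 163 and 145 times above the iPSC library. Actg2, the gamma-actin of enteric smooth muscle (NM_009610, chr6:83462903-83486245), was at 522 and 761 FPKM in the MEF libraries, 8.75 and 24.1 in the pre-iPSC libraries and 1.29 and 1.83 in the iPSC libraries. The libraries of the 3 cell types did not overlap for Actg2, nor for Myh11 and Tpm1 below. From pre-iPSCs to iPSCs, 26.4% of 16963 genes lay lower without overlap. The Actg2 level in pre-iPSCs was 6.80 and 13.2 times that in iPSCs. The actin genes are close paralogs, and although uniquely mapped reads alone were kept per the study's methods, how reads were divided among them was not tested, so the FPKM of Acta2 and Actg2 are uncertain in that respect.

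The myosin subunits moved with the actins. Myl9, the regulatory light chain of smooth muscle and non-muscle myosin (NM_172118, chr2:156601200-156607393), was at 789 and 1340 FPKM in the MEF libraries, 21.5 and 9.85 in the pre-iPSC libraries and 12.5 and 20.0 in the iPSC libraries. Pre-iPSCs and iPSCs overlapped, and both MEF libraries were above all others. Myh11, the smooth muscle myosin heavy chain and the most restricted marker of mature smooth muscle among the 10 (NM_013607, chr16:14194620-14291501), was far lower, at 7.02 and 11.8 FPKM in the MEF libraries, 0.165 and 0.168 in the pre-iPSC libraries and 0.0902 and 0.0899 in the iPSC libraries. In every MEF library Myh11 was the lowest of the 10 genes per kilobase, and its fold over the other cell types was 42.6 and 70.5 for pre-iPSCs and 77.9 and 132 for iPSCs.

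Cnn1 and Tagln bind actin filaments and temper contraction or stabilise the filament. Cnn1 (NM_009922, chr9:21903697-21913665) was at 238 and 385 FPKM in the MEF libraries, 2.52 and 2.14 in the pre-iPSC libraries and 1.57 and 2.75 in the iPSC libraries, folds of 94.1 and 180 over pre-iPSCs and of 151 and 140 over iPSCs. Tagln (NM_011526, chr9:45737711-45744141) was at 1807 and 3183 FPKM in the MEF libraries, 41.5 and 32.4 in the pre-iPSC libraries and 19.9 and 43.9 in the iPSC libraries. For both genes the pre-iPSC and iPSC values overlapped. The last 95 bp of Tagln overlap Pcsk7 on the opposite strand, and whether the libraries kept strand is not given in the sources used here, but Pcsk7 was at most at 7.10 FPKM.

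The tropomyosins lie along the actin filament and gate its use by myosin. Tpm1 (NM_024427, chr9:66870400-66897020) was at 3053 and 2526 FPKM in the MEF libraries, 125 and 157 in the pre-iPSC libraries and 71.4 and 113 in the iPSC libraries. Tpm2 (NM_009416, chr4:43527584-43536260) was at 205 and 343 FPKM in the MEF libraries, 9.11 and 12.5 in the pre-iPSC libraries and 6.46 and 13.2 in the iPSC libraries. The folds of MEFs over pre-iPSCs were 24.5 and 16.1 for Tpm1 and 22.5 and 27.4 for Tpm2, lower than for the actins and Cnn1. Tpm1 kept the highest level of the 10 genes in all 4 reprogrammed libraries.

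Des and Srf stood apart from the other 8. Des, the muscle intermediate filament protein desmin (NM_010043, chr1:75356919-75364290), was at 16.3 and 25.2 FPKM in the MEF libraries, 4.86 and 19.3 in the pre-iPSC libraries and 9.44 and 4.87 in the iPSC libraries. One pre-iPSC library was above the lower MEF library, and the replicates of pre-iPSCs differed from each other by more than MEFs differed from iPSCs in the first table. Srf, the transcription factor (NM_020493, chr17:46683788-46693111), was at 35.8 and 21.1 FPKM in the MEF libraries, 28.8 and 37.4 in the pre-iPSC libraries and 27 and 22.9 in the iPSC libraries, with the MEF range covering the iPSC values. In pre-iPSCs and iPSCs, Srf was therefore above Actg2, Cnn1, Myh11 and Tpm2 in every library, whereas in MEFs it was below Actg2, Cnn1 and Tpm2.

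The limma test on log2(FPKM + 1) covered the 12401 genes whose 6 libraries averaged 0.5 FPKM or more, and a call needed a Benjamini-Hochberg adjusted p under 0.05 as well as a 2-fold change. Such a mean lets a gene enter through a single cell type. Myh11 entered only through MEFs, since its pre-iPSC and iPSC libraries were at 0.0899 to 0.168 FPKM. By that rule 8 of the 10 genes were called lower in pre-iPSCs than in MEFs, where 16.4% of all genes were called and 9% were called lower. The log2 change was -6.65 ± 0.50 for Acta2 (SE, adjusted p = 0.000887), -6.51 ± 0.38 for Cnn1 (0.000373), -6.04 ± 0.51 for Myl9 (0.00111), -5.99 ± 0.47 for Tagln (0.000938) and -5.34 ± 0.39 for Actg2 (0.000808). It was -4.51 ± 0.34 for Tpm2 (0.000887), -4.30 ± 0.47 for Tpm1 (0.00215) and -3.12 ± 0.34 for Myh11 (0.00215). The pseudocount of 1 shrinks the change of a low gene, and with 0.1 Myh11 fell by 5.11. Des changed by -0.97 ± 0.59 (adjusted p = 0.320) and Srf by 0.25 ± 0.39 (adjusted p = 0.728), so neither passed. The median log2 change was -4.92 over the 10 genes and -0.04 over all genes tested.

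From pre-iPSCs to iPSCs, 1 of the 10 genes was called, where 8.62% of all genes were called and 4.71% were called lower. Actg2 fell by a further 2.62 ± 0.39 on the log2 scale (limma, adjusted p = 0.00801), but this call was lost when the second pre-iPSC library, or either iPSC library, was left out. The other 9 genes had log2 changes between -0.63 (Tpm1) and 0.11 (Myl9). Of the 8 genes that fell at the first step, 7 thus had no further change that passed the test. In iPSCs against MEFs, 8 genes were called lower, where 25.9% of all genes were called and 15.5% were called lower. The largest of these changes was that of Actg2, which fell by 7.96 ± 0.39 (adjusted p = 0.000406), while Myh11 fell by 3.22 ± 0.34 (0.00142) with the pseudocount of 1. With a pseudocount of 0.1, Myh11 fell by 5.60 and Tpm2, then the smallest of the 8 changes, fell by 4.83. Des changed by -1.44 ± 0.59 (adjusted p = 0.115) and Srf by -0.14 ± 0.39 (0.827). Quantile normalisation moved the median of all genes in this comparison from -0.14 to 0.05 and turned the split of called genes from 1279 higher and 1927 lower to 1636 and 1707, and the 8 calls were still made.

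**Figure D2:**
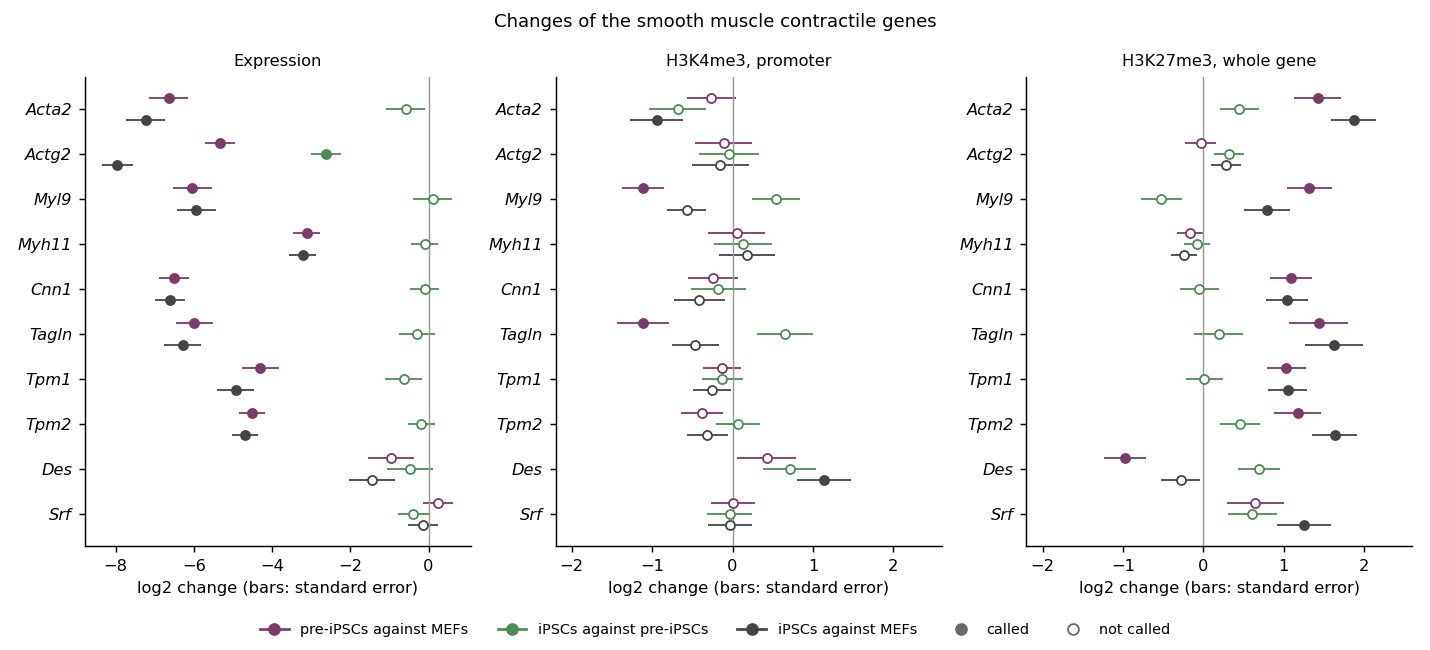
Log2 change with its standard error for the 10 genes in expression (limma), promoter H3K4me3 and H3K27me3 over the whole gene (edgeR), 1 colour for each comparison and filled points for called changes. The standard errors for edgeR were derived from its F statistic. In expression 8 genes lie below -3 in both comparisons with MEFs, H3K4me3 changes lie within about 1 unit of 0, and most H3K27me3 changes against MEFs lie above 0.

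MEFs are a mixed population, so cell type markers were read beside the 10 genes. The 12 fibroblast markers were at a summed 4641 and 4381 FPKM in the MEF libraries, 339.6 and 105 in the pre-iPSC libraries and 251 and 303 in the iPSC libraries, and 9 of the 12 were called lower in pre-iPSCs than in MEFs. Col1a1, the main chain of collagen I, was at 2144 and 1614 FPKM in the MEF libraries, 93.7 and 27.7 in the pre-iPSC libraries and 74.7 and 70.6 in the iPSC libraries. Dcn and Lum, extracellular matrix proteoglycans chosen after their values were seen, did not share this: Dcn was at 9.0 and 36.6 FPKM in the MEF libraries, 21.9 and 4.37 in the pre-iPSC libraries and 30.2 and 40.5 in the iPSC libraries, and Lum at 0.348 and 5.84, 4.77 and 0.357, and 5.88 and 8.59. The summed level of the 10 contractile genes in the pre-iPSC libraries was 2.61% and 2.01% of the MEF level in the same table, and in iPSCs 1.49% and 1.61%. For the fibroblast markers the same shares were 7.32% and 2.39% for the pre-iPSC libraries and 5.40% and 6.92% for the iPSC libraries. Both reprogrammed cell types were grown on MEF feeders, and the part of feeder RNA in the remaining levels was not tested. In these bulk libraries, fewer cells expressing a gene and less RNA per cell cannot be told apart.

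The listed markers of striated muscle and of pericytes each summed to less than the 10 genes in every library. Single markers were not all lower. In both MEF libraries Pdgfrb was above Srf, Des and Myh11, and Cspg4 and Tnnt2 were above Myh11. The striated list leaves out Acta1, the skeletal muscle actin, which was at 155 and 285 FPKM in MEFs. Of 12 striated muscle markers, 3 reached the mean of 0.5 FPKM, and the list summed to 10.1 and 17.0 FPKM in the MEF libraries, 9.49 and 11.8 in the pre-iPSC libraries and 5.66 and 3.99 in the iPSC libraries. Tnnt2, the cardiac troponin T, made up most of it in MEFs, at 9.38 and 15.6 FPKM, and was called lower in pre-iPSCs than in MEFs, whereas Actn2 and Tnni3 were called higher. Tnnt2 was at most at 0.660 FPKM outside MEFs and met the mean through MEFs. Actn2 was at 0 and 0.0259 FPKM in MEFs and met it through the other cell types. Of 6 pericyte markers, 3 were tested, and the list summed to 95.3 and 45.8 FPKM in the MEF libraries, 13.0 and 5.57 in the pre-iPSC libraries and 12.5 and 16.2 in the iPSC libraries, and Pdgfrb, the receptor of pericytes and fibroblasts for platelet-derived growth factor, was at 65.9 and 28.1 FPKM in MEFs and, like Cspg4, was called lower in pre-iPSCs. Notch3 made up most of the iPSC sum, at 10.1 and 12.0 FPKM. In iPSCs against MEFs, Tnnt2 was the 1 striated muscle gene called lower and the 3 tested had a median log2 change of 0.84, while 2 pericyte genes were called lower and Notch3 higher. The part of these cells in the changes of the contractile genes was not tested.

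Genes that work with the 10 were read from lists. Of 16 further contractile and regulatory genes of smooth muscle, 13 were tested and 11 were called lower in pre-iPSCs than in MEFs, with a median log2 change of -2.45. Over all genes tested, 9% were called lower there. Among the 13, Mylk and Kcnmb1 met the mean of 0.5 FPKM only through MEFs, being at most at 0.335 and 0.0908 FPKM elsewhere. Cald1, the actin-binding protein caldesmon, was at 690 and 994 FPKM in the MEF libraries, 66.7 and 85.6 in the pre-iPSC libraries and 23.3 and 39.8 in the iPSC libraries. Lmod1, a leiomodin that nucleates actin filaments, was at 33.1 and 43.3 FPKM in MEFs and between 0.482 and 0.684 in the other 4 libraries. Csrp1, a LIM protein of smooth muscle, was the gene of this list called at the second step as well, with log2 changes of -1.68 ± 0.42 and then -2.12 ± 0.42 (limma, adjusted p = 0.0364 and 0.0252).

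The cytoskeletal relatives of the 10 genes were read in the same way. Of 14 tested, 7 were called lower in pre-iPSCs and 8 in iPSCs against MEFs, and 1, the non-muscle myosin heavy chain Myh14, was called higher in iPSCs, where 10.3% of all genes were called higher. Myh14 was at 0.0151 and 0.0234 FPKM in MEFs and met the mean of 0.5 FPKM through iPSCs, at 1.34 and 1.46. Actb, the cytoplasmic beta-actin, was at 4338 and 9876 FPKM in the MEF libraries, 2423 and 1993 in the pre-iPSC libraries and 2402 and 1210 in the iPSC libraries, and its log2 change of -1.57 ± 0.89 in pre-iPSCs against MEFs did not pass (limma, adjusted p = 0.282). Acta1, the skeletal muscle actin, followed Acta2 at a lower level, with 155 and 285 FPKM in MEFs and 2.04 to 8.40 in the other libraries. Vim, the intermediate filament protein vimentin, fell by 2.38 ± 0.60 (adjusted p = 0.0351) in pre-iPSCs against MEFs.

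The partners and early targets of SRF did not share 1 direction. Of the 5 tested SRF cofactors and ternary complex factors, 2 (Mkl1 and Elk3) were called lower in pre-iPSCs than in MEFs and none higher. Mkl1, a myocardin-related cofactor that senses free actin, was at 28.8 and 12.3 FPKM in the MEF libraries, 7.63 and 3.0 in the pre-iPSC libraries and 10.4 and 5.28 in the iPSC libraries, and Elk3, a ternary complex factor, was at 43.0 and 34.7, 9.43 and 5.90, and 3.25 and 4.68. Of 6 immediate-early SRF targets, 3 (Fos, Fosb and Ier2) were called higher in pre-iPSCs than in MEFs, where 7.39% of all genes were called higher, and none lower. Fos, a growth-induced transcription factor, was at 20.9 and 2.81 FPKM in the MEF libraries, 185 and 107 in the pre-iPSC libraries and 67.7 and 71.0 in the iPSC libraries.

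**Figure D3:**
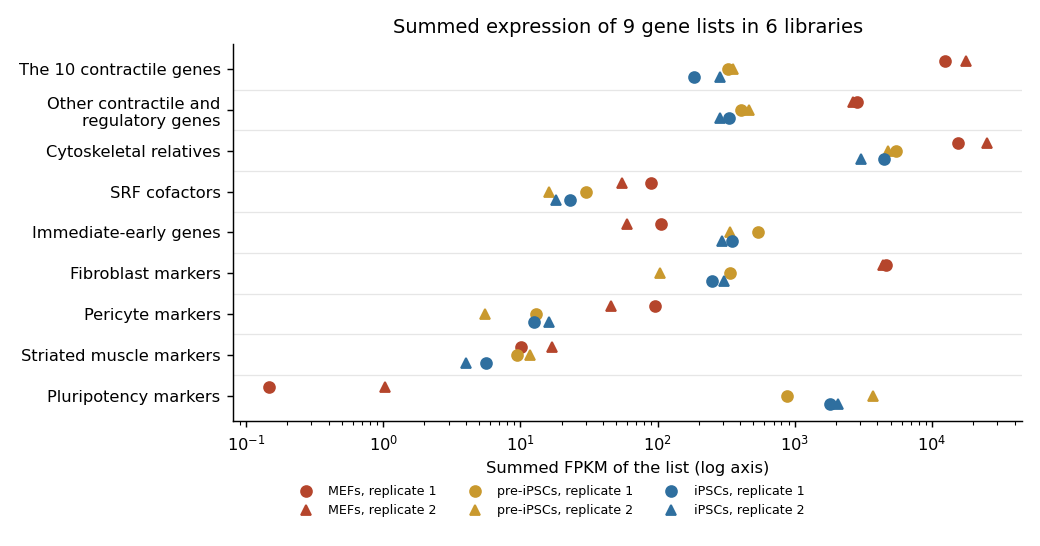
Summed FPKM (log axis) of the 10 contractile genes and 8 other gene lists, 1 point for each of the 6 RNA-seq libraries. The contractile genes and their relatives lie highest in MEFs, whereas immediate-early genes and pluripotency markers lie lowest there.

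Chromatin was read from the deposited calls of single nucleosomes, each with its number of reads. Levels are reads of calls within 1000 bp of the start site, or between start and end of the gene, per kilobase and scaled to the library total (RPKM). Reads in calls ranged from 12007350 to 13146349 for H3K4me3, from 13224775 to 15222040 for H3K27me3, from 12222861 to 12942154 for H3K9me3 and from 67362868 to 108211816 for H3. The counts behind a promoter were small, 12 to 80 reads for H3K4me3 and 1 to 38 for H3K27me3 among the 10 genes. MEF nuclei had been digested with more micrococcal nuclease for a shorter time than those of the other cells, so digestion and cell type cannot be told apart.

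H3K4me3, the mark of active promoters, had a median over the 10 genes of 1.76 and 1.02 RPKM in the MEF libraries, beside 1.22 and 0.955 over all promoters. Myl9 had 2.57 and 1.62 RPKM in the MEF libraries, 0.736 and 0.747 in the pre-iPSC libraries and 1.09 and 1.12 in the iPSC libraries. Its 3 cell types were fully separated, although iPSCs against pre-iPSCs did not pass the test (edgeR, adjusted p = 0.604). In that comparison 21.1% of promoters with reads lay higher without overlap in iPSCs and 15.9% lower, beside 4 and 1 of the 10 genes. Tagln had 2.00 and 1.05 RPKM in the MEF libraries, 0.674 and 0.390 in the pre-iPSC libraries and 0.993 and 0.724 in the iPSC libraries, with both MEF libraries above the others. Of all 19845 promoters with reads, 46.7% lay below MEFs without overlap in pre-iPSCs and 45.1% in iPSCs. Among the 10 genes these were 5 and 4, near that share. Acta2 had 1.79 and 0.987 RPKM in the MEF libraries, 0.828 and 0.942 in the pre-iPSC libraries and 0.372 and 0.757 in the iPSC libraries, so that the second MEF library was only just above the pre-iPSCs. The first MEF library was the highest of the 6 for 9 of the 10 genes, and the median over all 20156 promoters was also highest there, at 1.22 against 0.812 to 0.955 RPKM in the others. Des was the exception, with 0.576 and 0.573 RPKM in the MEF libraries, 0.674 and 0.519 in the pre-iPSC libraries and 1.12 and 0.888 in the iPSC libraries. Tpm1 ranged from 1.37 to 2.57 RPKM over the 6 libraries and Srf from 0.931 to 1.63, while Myh11 ranged from 0.509 to 1.08.

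In edgeR's quasi-likelihood test over 17644 promoters, 2 of the 10 genes were called lower in H3K4me3 in pre-iPSCs than in MEFs, where 3.87% of promoters were called and 0.856% were called lower. The log2 change was -1.11 ± 0.27 for Myl9 (SE derived from the test statistic, Benjamini-Hochberg adjusted p = 0.00984) and -1.11 ± 0.32 for Tagln (adjusted p = 0.0349). None of the 10 was called in iPSCs against pre-iPSCs, where 0.034% of promoters were called. In iPSCs against MEFs, where 13.9% of promoters were called, 9.79% higher and 4.15% lower, Acta2 fell by 0.95 ± 0.33 (adjusted p = 0.0451) and Des rose by 1.14 ± 0.34 (adjusted p = 0.0176). Both counts of 2 became 0 with DESeq2, with a window of 500 bp, or without the first MEF library, and that of pre-iPSCs also without either pre-iPSC library and that of iPSCs also without the first iPSC library. Without TMM scaling the median of all promoters moved to -0.40 and -0.38 and the calls against MEFs turned from 532 higher and 151 lower to 232 and 1134 in pre-iPSCs and from 1727 and 733 to 842 and 2370 in iPSCs, and the call of Des was lost.

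A second start site lay within some of the genes. In the mm9 annotation a group of 7 Tpm1 transcripts started 5251 bp downstream of the start site used above. Short, non-muscle tropomyosin transcripts begin at an internal start of this gene, but whether these 7 are such forms was not examined. H3K4me3 within 1000 bp of this downstream start was 2.17 and 1.78 RPKM in the MEF libraries. It was 0.858 and 1.01 in the pre-iPSC libraries and 0.931 and 0.855 in the iPSC libraries. Both MEF libraries were above the other 4 there, which the upstream start site showed with a smaller gap. A group of 4 Actg2 transcripts started 8261 bp downstream, and H3K4me3 there stayed between 0.276 and 0.691 RPKM. Over the whole gene, Tagln had 2.05 and 1.23 RPKM of H3K4me3 in the MEF libraries, 0.496 and 0.293 in the pre-iPSC libraries and 0.550 and 0.563 in the iPSC libraries. These values were not tested.

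**Figure D4:**
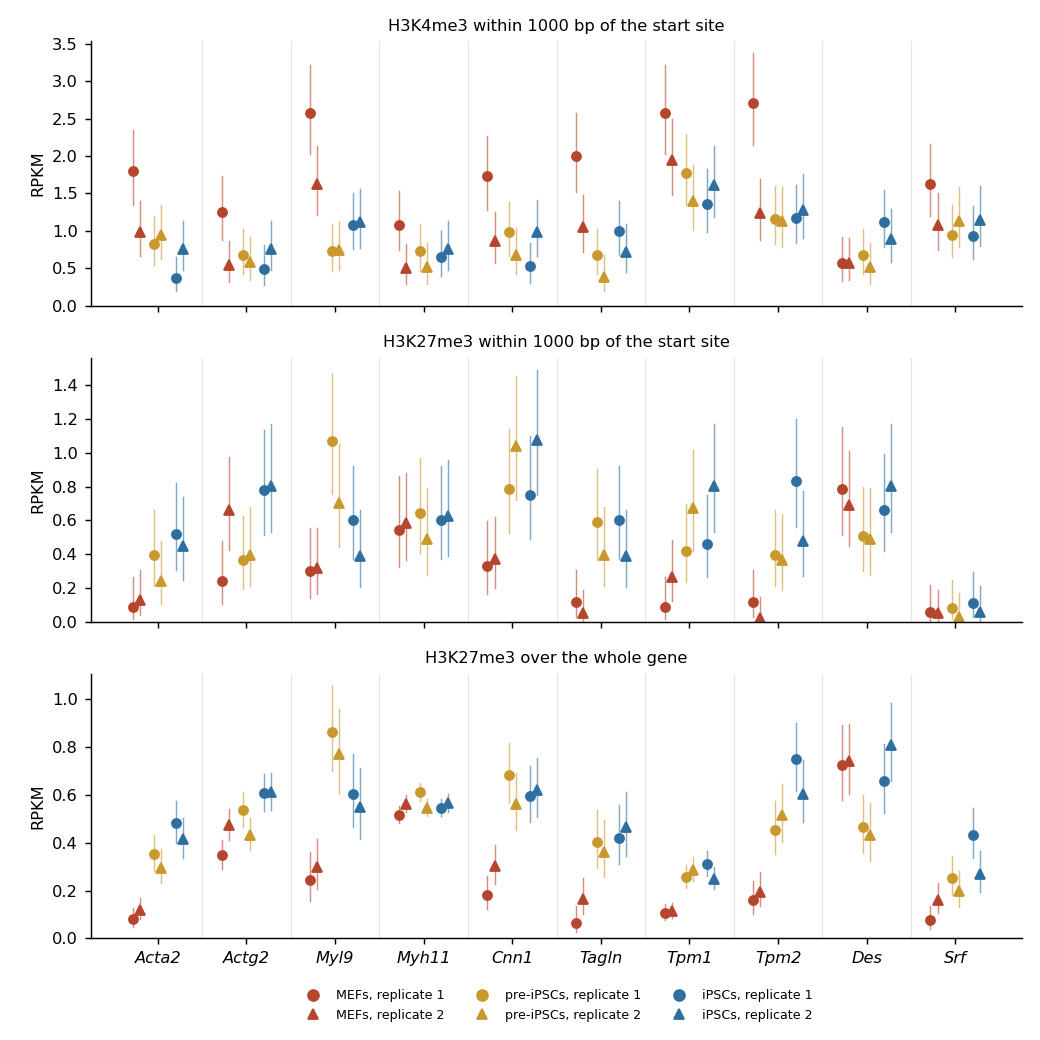
RPKM of H3K4me3 and H3K27me3 within 1000 bp of the start site and of H3K27me3 over the whole gene for the 10 genes, 1 point for each library, with exact 95% Poisson intervals that cover counting error only. Over the whole gene, H3K27me3 of Acta2, Myl9, Cnn1, Tagln, Tpm1, Tpm2 and Srf lies below all other libraries in both MEF libraries, while Des and Myh11 show no such gap. Of all 19871 genes with reads, 47.5% lay above MEFs without overlap in pre-iPSCs and 46.6% in iPSCs.

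H3K27me3, the repressive mark laid down by Polycomb complexes, was read over the whole gene. The median of the 10 genes was 0.172 and 0.247 RPKM in the MEF libraries, 0.460 and 0.432 in the pre-iPSC libraries and 0.570 and 0.558 in the iPSC libraries. The median over all genes was 0.204 and 0.248 RPKM in the MEF libraries, 0.316 and 0.267 in the pre-iPSC libraries and 0.335 and 0.293 in the iPSC libraries, so the 10 genes were near it in MEFs, and it was higher in the reprogrammed cells too on this scale without TMM. Acta2 had 0.0809 and 0.119 RPKM in the MEF libraries, 0.352 and 0.296 in the pre-iPSC libraries and 0.481 and 0.415 in the iPSC libraries. Tpm2 had 0.161 and 0.195 RPKM in the MEF libraries, 0.454 and 0.514 in the pre-iPSC libraries and 0.751 and 0.605 in the iPSC libraries. For both genes the levels were ordered from MEFs to pre-iPSCs to iPSCs with no overlap between cell types, although the differences between pre-iPSCs and iPSCs did not pass the test (edgeR, adjusted p = 0.613 and 0.608). Of all 19871 genes with reads, 21% lay higher without overlap in iPSCs than in pre-iPSCs and 17.1% lower, beside 6 and 1 of the 10 genes. Myl9 was highest in pre-iPSCs instead, with 0.245 and 0.299 RPKM in the MEF libraries, 0.863 and 0.770 in the pre-iPSC libraries and 0.605 and 0.549 in the iPSC libraries. Tagln had 0.0660 and 0.165 RPKM in MEFs and 0.361 to 0.464 in the other libraries. Cnn1 had 0.182 and 0.303 RPKM in MEFs and 0.564 to 0.683 in the others, and Tpm1 had 0.107 and 0.113 in MEFs and 0.249 to 0.310 in the others.

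Of the other 4 genes, Srf was also lowest in both MEF libraries, with 0.0780 and 0.159 RPKM there, 0.254 and 0.197 in the pre-iPSC libraries and 0.433 and 0.269 in the iPSC libraries and no overlap between cell types. The remaining 3 differed. Myh11 held between 0.517 and 0.611 RPKM in all 6 libraries, and Actg2 had 0.348 and 0.474 in MEFs and 0.432 to 0.611 in the others, although the expression of both fell. Des had 0.724 and 0.740 RPKM in the MEF libraries, 0.466 and 0.431 in the pre-iPSC libraries and 0.657 and 0.810 in the iPSC libraries, lowest in pre-iPSCs.

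In the test of H3K27me3 over 17622 genes, 6 of the 10 were called higher and 1 lower in pre-iPSCs than in MEFs, where 23.1% of genes were called, 10.5% higher and 12.6% lower. Tagln rose by 1.43 ± 0.37 on the log2 scale (edgeR, adjusted p = 0.00500), Acta2 by 1.42 ± 0.29 (0.000459), Myl9 by 1.31 ± 0.28 (0.000783), Tpm2 by 1.17 ± 0.29 (0.00342), Cnn1 by 1.09 ± 0.26 (0.00287) and Tpm1 by 1.03 ± 0.25 (0.00248). Des fell by 0.97 ± 0.26 (0.00579). None of the 10 was called in iPSCs against pre-iPSCs, where 1.37% of genes were called. In iPSCs against MEFs 7 were called higher, where 28.4% of genes were called and 14% were called higher, and these were Acta2, Tpm2, Tagln, Srf, Tpm1, Cnn1 and Myl9. Both comparisons share the MEF libraries. Acta2 rose by 1.87 ± 0.28 and Tpm2 by 1.63 ± 0.28 (adjusted p = 4.3e-05), while Srf rose by 1.26 ± 0.34 (adjusted p = 0.00538). Without the first MEF library both counts were 3, namely Acta2, Tpm1 and Myl9 in pre-iPSCs and Acta2, Tpm1 and Tpm2 in iPSCs. Without TMM scaling the median of all genes moved to 0.31 and 0.33, the calls against MEFs turned from 1856 higher and 2212 lower to 2619 and 595 in pre-iPSCs and from 2468 and 2535 to 3405 and 627 in iPSCs, and the call of Des was lost. Among the marker and partner lists, 7 of 12 fibroblast markers were called higher and 2 lower in pre-iPSCs than in MEFs, and 8 of 16 further contractile and regulatory genes were called higher and none lower. Higher calls without lower ones were also made for 6 of 12 cytoskeletal relatives, 3 of 6 SRF cofactors, 2 of 6 pericyte markers and 1 of 5 immediate-early genes. Striated muscle markers had 3 of 12 called lower and pluripotency markers 1 of 7, with none higher.

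At promoters the same mark rested on few reads. Tpm2 had 4 and 1 reads in the MEF libraries, 14 and 12 in the pre-iPSC libraries and 29 and 16 in the iPSC libraries. Tagln had 4 and 2 reads in the MEF libraries, 21 and 13 in the pre-iPSC libraries and 21 and 13 in the iPSC libraries. Both genes were thus low in both MEF libraries, whereas Srf had 1 to 4 reads in every library and was too low to be tested. Of the 9 genes tested among 10185, 5 were called higher in pre-iPSCs than in MEFs (Tagln, Tpm2, Tpm1, Myl9 and Cnn1), where 8.29% of promoters were called and 5.03% were called higher. The filter on low counts, like that on FPKM, lets a gene enter through a single cell type. Tagln, Tpm2, Acta2 and Tpm1 entered through the reprogrammed cells, which favours a rise against MEFs. Acta2 and Tpm1 averaged 0.112 and 0.178 RPKM in the MEF libraries. Tagln rose by 2.49 ± 0.55 on the log2 scale (edgeR, adjusted p = 0.00158) and Tpm2 by 2.36 ± 0.61 (0.00762). None of the 9 was called in iPSCs against pre-iPSCs, where 0.805% were called. In iPSCs against MEFs, where 11.4% were called and 7.28% were called higher, the 5 genes called higher were Tpm2, Tagln, Acta2, Tpm1 and Cnn1, with Tpm2 rising by 3.09 ± 0.54 (adjusted p = 5.8e-05). Both counts of 5 became 0 with DESeq2, which called 44 and 27 of all promoters, and with a window of 500 bp. The count for pre-iPSCs was 3 without the first MEF library, 1 without the second and 3 without the second pre-iPSC library, and that for iPSCs was 2 without the first MEF library and 3 without the second or without either iPSC library.

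**Figure D5:**
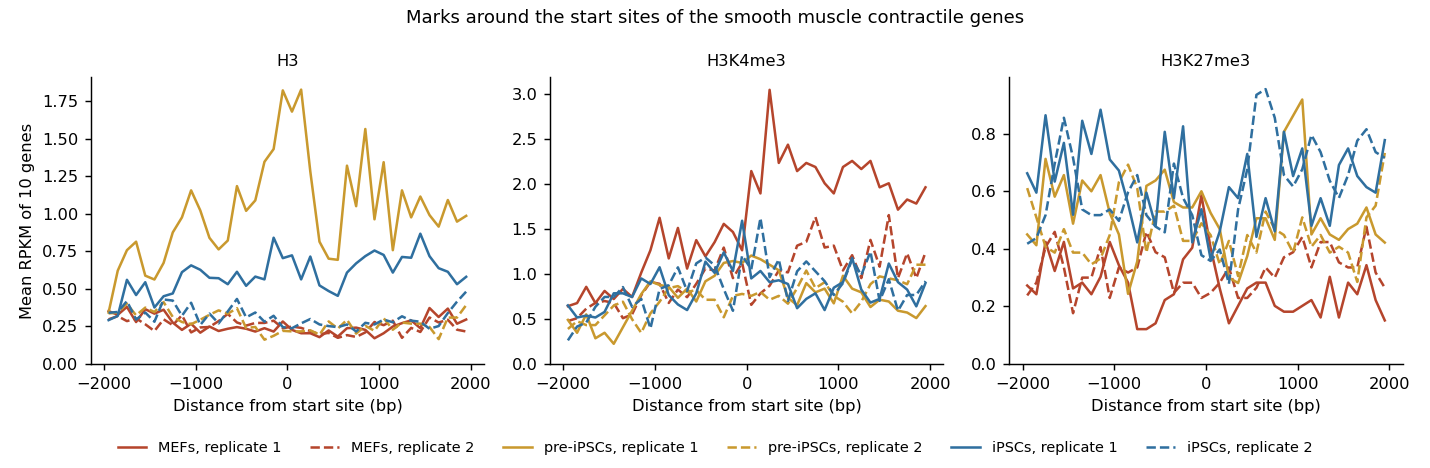
Mean RPKM of H3, H3K4me3 and H3K27me3 over the 10 genes against the distance from the start site in bp, in bins of 100 bp smoothed over 3 bins, 1 line for each library with replicate 2 dashed. In the first 1000 bp downstream of the start site, mean H3K4me3 is 2.21 RPKM in the first MEF library and 0.806 to 1.13 in the other 5, and mean H3K27me3 is lowest in the 2 MEF libraries (0.255 and 0.307 RPKM).

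H3K27me3 was also read apart upstream and downstream of the start site. Averaged over the 10 genes, it was 0.285 and 0.323 RPKM in the MEF libraries, 0.484 and 0.532 in the pre-iPSC libraries and 0.571 and 0.525 in the iPSC libraries in the 1000 bp upstream. In the 1000 bp downstream it was 0.255 and 0.307 in the MEF libraries, 0.568 and 0.434 in the pre-iPSC libraries and 0.617 and 0.627 in the iPSC libraries. MEFs were below all other libraries in both windows. Within 1000 bp on both sides, the median of the 10 genes was 0.182 and 0.291 RPKM in the MEF libraries. That median was 0.464 and 0.443 in the pre-iPSC libraries and 0.605 and 0.552 in the iPSC libraries. The median over all promoters in the same window was also lowest in MEFs, by less. It was 0.182 and 0.212 RPKM in the MEF libraries, 0.225 and 0.214 in the pre-iPSC libraries and 0.259 and 0.239 in the iPSC libraries. When a promoter was taken as marked above 1 RPKM within 500 bp of the start site, H3K4me3 alone was present at 8 and 5 of the 10 genes in the MEF libraries, 3 and 1 in the pre-iPSC libraries and 5 in each iPSC library. Over all promoters that share was 55.8% and 47.1% in the MEF libraries, 40.2% and 30.4% in the pre-iPSC libraries and 44.3% and 32.1% in the iPSC libraries, lower outside MEFs as well. H3K27me3 passed that level at 1 gene in 2 libraries: Cnn1 had H3K27me3 alone in the second pre-iPSC library and both marks in the second iPSC library.

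Histone H3 itself was uneven between replicates. The median promoter of all genes had 0.550 RPKM in the first pre-iPSC library and 0.408 in the first iPSC library, against 0.204 to 0.238 in the other 4. The median of the 10 genes was 0.209 and 0.227 RPKM in the MEF libraries, 1.14 and 0.270 in the pre-iPSC libraries and 0.594 and 0.300 in the iPSC libraries, so the first pre-iPSC and iPSC libraries stood apart here too. At Des the first pre-iPSC library had 2.41 RPKM and the second 0.287, and at Tpm2 they had 1.62 and 0.160. No promoter of 19578 was called by edgeR in any of the 3 comparisons (0% called), with 350, 108 and 245 at an unadjusted p below 0.05, and DESeq2 called 0 as well, with 195, 40 and 134. Without the second pre-iPSC library, leaving the library that stood apart as the lone pre-iPSC sample and its spread assumed to be like that of the other groups, 4 genes were called higher in pre-iPSCs than in MEFs (Cnn1, Myl9, Tpm2 and Des) and Myl9 was called lower in iPSCs than in pre-iPSCs. The same fit called 25.2% of all promoters in the former comparison, 1655 higher and 3298 lower, and 10.6% in the latter, 1920 higher and 171 lower.

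H3K9me3, the mark of constitutive heterochromatin, had 1 library for each cell type, so its values have no replicate check and no test. Over the whole gene the 10 genes had a median of 0.277 RPKM in the MEF, 0.438 in the pre-iPSC and 0.415 in the iPSC library, beside 0.293, 0.363 and 0.348 over all genes. Promoter counts were 2 to 20 reads. Tpm2 had 2, 14 and 16 reads in MEFs, pre-iPSCs and iPSCs, and its 0.0656 RPKM in MEFs had an exact 95% Poisson interval of 0.00794 to 0.237, below the 0.239 to 0.733 of pre-iPSCs. Tagln had 3, 11 and 15 reads and Cnn1 3, 12 and 12, with intervals that overlapped between MEFs and pre-iPSCs. Srf had 5, 2 and 8 reads, and the intervals cover counting error only. Des and Myh11 were likewise lower in pre-iPSCs than in MEFs. Over MEFs, pre-iPSCs and iPSCs, Des had 0.426, 0.187 and 0.496 RPKM at its promoter and Myh11 0.394, 0.249 and 0.265.

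The base content of the promoters was read beside their expression. Within 500 bp of the start site, Acta2, Actg2, Cnn1, Myh11, Tagln and Myl9 had 12 to 33 CpG dinucleotides, below the median of 47 over all promoters, while Tpm2, Tpm1, Des and Srf had 57, 68, 70 and 94. The GC content ran from 46.4% at Acta2 to 67.6% at Srf, beside a median of 56%. The 8 genes that fell in expression included both CpG-poor and CpG-rich promoters, and Des and Srf, which did not pass the test, had the highest CpG counts of the 10.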

How the data were processed

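The authors aligned ChIP-seq reads with Bowtie 1.0.1 to mm9 and RNA-seq reads with TopHat2 2.0.4, and deposited FPKM computed with Cufflinks 2.0.2, per the labels and the study's methods. The deposited nucleosome calls carry read counts, whose dyad was placed 73 bp from the start of a call. Counts were summed within 1000 bp of the start site or over the gene for all 20156 genes, and RPKM used the library totals of uniquely mapped reads that the study gives. FPKM were tested with limma 3.58.1 on log2(FPKM + 1), with a mean of at least 0.5 FPKM and the table as a term. Counts were tested with edgeR 4.0.16 (quasi-likelihood, TMM), with Benjamini-Hochberg adjustment over all genes. The standard errors given with edgeR are approximate, being the absolute log2 change over the square root of the F statistic of the test. DESeq2 1.42.0, other scalings, filters, windows and pseudocounts, calls of at least 2 reads, a replicate block and leaving out each library were alternatives. Scripts were tested on simulated data. The members and lists were chosen with earlier results of these data known. All 10 members are named, and of other lists at most the 3 most abundant genes and the 2 with the largest called change in iPSCs against MEFs, except genes called in small numbers or differing from their list, which were named after their values were seen. R 4.3.3 and Python 3.11.15 were used. The promoter sequences come from the mm9 genome. A column was used only where its name matched 1 sample.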

Additional observations from a re-analysis of the deposited data

How the results depend on the processing

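The 8 expression calls in each comparison with MEFs were made under every alternative run. The 45 called changes of single members were each recomputed under every alternative that tested them, and the direction and the call held in 412 of these recomputations, the call was lost in 75, and none reversed. The call of Actg2 in iPSCs against pre-iPSCs gave 1 gene, and 0 to 1 when 1 library was left out. For H3K4me3 at promoters, the 2 calls in pre-iPSCs against MEFs became 0 with DESeq2, 0 with 500 bp and 1 with calls of at least 2 reads (0 to 2 with 1 library left out), and the 2 calls in iPSCs against MEFs became 0 with DESeq2 and 0 with 500 bp (0 to 2). For H3K27me3 at promoters, the 5 calls in each comparison with MEFs became 0 with DESeq2 and 0 with 500 bp, and ranged from 1 to 5 in pre-iPSCs and from 2 to 5 in iPSCs with 1 library left out. For H3 the 0 calls ranged from 0 to 4 in pre-iPSCs against MEFs and from 0 to 1 in iPSCs against pre-iPSCs. For H3K27me3 over the gene, the 7 calls ranged from 3 to 7 in both comparisons with MEFs. A 500 bp window leaves fewer reads and tested 6 of the 10 genes for H3K27me3, and the cause of the other differences was not tested.

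Counts over all genes moved further. In expression, the 2032, 1069 and 3206 calls became 1244, 788 and 2371 without the filter on low values, and with 1 library left out the lowest were 1025, 36 and 655. DESeq2 called 39, 0 and 142 promoters for H3K4me3, where edgeR called 683, 6 and 2460, and 44, 0 and 27 for H3K27me3, where edgeR called 844, 82 and 1159. Promoter counts of a few reads limit what can be detected for H3K27me3 and H3K9me3.

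The replicate numbers were not taken to pair the libraries, since the labels name no shared source and not every pair's correlation was above 0.1. The study's methods do match iPSCs to pre-iPSC clones, but which libraries share a clone is not given in the sources used here. The correlation of deviations between same-numbered libraries ran from -0.20 to 0.35 for expression, from -0.04 to 0.12 for H3K4me3, from -0.05 to 0.06 for H3K27me3 at promoters, from -0.20 to 0.41 over genes and from -0.03 to 0.79 for H3, the highest values for H3 and over genes being those of pre-iPSCs with iPSCs. With the replicate block the members called stayed at 2, 0 and 2 for H3K4me3, 5, 0 and 5 for H3K27me3 at promoters, 7, 0 and 7 over genes and 0 for H3, and without the replicate block of the expression fit they stayed at 8, 1 and 8.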

Other observations

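Among 5494 genes outside all lists with a mean of at least 10 FPKM, 66 had a Pearson r above 0.98 with the mean log2(FPKM + 1) of the 10 contractile genes over the 6 libraries, given as a description of libraries that fall into MEFs and reprogrammed cells. The 5 highest were Itga11, Ryk, Galntl4, Fst and D4Bwg0951e. Itga11, a collagen-binding integrin subunit, was at 32.1 and 36.3 FPKM in the MEF libraries, 0.922 and 0.892 in the pre-iPSC libraries and 0.428 and 0.676 in the iPSC libraries (r = 0.998). Fst, the activin antagonist follistatin, was at 68.4 and 128 FPKM in MEFs and 1.22 to 2.50 in the other libraries (r = 0.996). Of the 10 genes themselves, 8 had an r between 0.97 (Actg2, rounded) and 0.997 (Acta2) with the mean that includes them, beside 0.71 for Des and -0.08 for Srf.

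Notch3, a receptor of mural cells, went the other way from the contractile genes, at 0.675 and 0.579 FPKM in the MEF libraries, 4.06 and 1.59 in the pre-iPSC libraries and 10.1 and 12.0 in the iPSC libraries. It rose by 1.73 ± 0.42 on the log2 scale in iPSCs against pre-iPSCs (limma, adjusted p = 0.0470), a call that was not followed through the alternatives. Pdgfrb and Cspg4, the other pericyte markers tested, were called lower in both comparisons with MEFs.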
